A study of Mus musculus with 30 samples.

Results

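A set of 8 genes of mouse chromosome 13 was followed through all 9 groups of the series: the long noncoding RNA gene 2610307P16Rik, the mouse candidate for CASC15, and its neighbours Sox4, Cdkal1, E2f3, Mboat1, Hdgfl1, Nrsn1 and Mrs2. They were chosen by position, as genes that lie around 2610307P16Rik, and found by matching Ensembl gene identifiers to symbols, which gave 8 of the 78334 identifiers in the table. No annotation used here pairs 2610307P16Rik with the name CASC15. Of these 8 members of the locus, 6 had enough reads to be tested in each sequencing run, and 2 did not.

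Long noncoding RNAs are transcripts without a long reading frame, and many lie beside a gene for a transcription factor. CASC15 was named as a cancer susceptibility candidate in human, where it shares its stretch of the genome with SOX4. SOX4 belongs to the SoxC transcription factors, which bind DNA through an HMG box and act in heart and vessel development, in mesenchymal cells and in many tumours. Smooth muscle cells of the aorta can leave their contractile state and divide, and PDGF-BB is a textbook inducer of that switch, while angiotensin II acts on the same cells through G protein-coupled receptors.

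The series holds 30 RNA-seq libraries of total RNA from cells labelled as mouse aortic smooth muscle cells, sequenced in 2 runs, which the labels call run 2 and run 3. Before use, all cells went 48 h in serum-free medium, and they were transfected with a GapmeR, which is an antisense oligonucleotide that directs RNase H to the RNA it pairs with, or with a plasmid. Treated cells had angiotensin II at 10 ng/ml or PDGF-BB at 10 to 30 ng/ml for 24 h. The growth protocol names rat cells beside mouse cells, and the source of single libraries was not tested.

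Run 2 held 4 untreated groups. These were a control GapmeR (antisense control, 2 libraries), a GapmeR against total CASC15 (labelled total knockdown, 2 libraries), a control plasmid (3 libraries) and overexpression of total CASC15 (3 libraries). Run 3 held 5 groups of 4 libraries: the control GapmeR untreated, with angiotensin II and with PDGF-BB, and a GapmeR against long CASC15 (long knockdown) untreated and with angiotensin II. The labels do not say which transcripts are total or long CASC15, and values per gene do not separate transcripts. No knockdown library had PDGF-BB. Each library carries a batch label from P16 to P19 that equals its replicate number within a run. Whether replicates were separate cultures or animals is not stated, so p-values measure the spread between these libraries, which may be technical.

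Library totals ran from 18007199 to 21881959 counts in run 2 and from 15771490 to 30362047 in run 3. Levels are given as CPM, the usual depth-scaled count, with library totals adjusted by TMM, which sets most genes equal between libraries of a run. Levels were compared by test within a run only. The label of smooth muscle cells was read against 8 markers, which summed to 175 to 536 CPM. Acta2 (96.5 to 441 CPM) and Smtn (42.2 to 103) made up nearly all of this, while the contractile markers Myh11 (at most 6.67 CPM), Tagln (at most 3.45) and Cnn1 (at most 0.224) were low, with Cnn1 at 0 in 17 of 30 libraries and Myh11 in 4. Fibroblast markers summed to 2605 to 4216 CPM (5 genes, led by Col1a1 and Dcn, some of which moved with long knockdown and PDGF-BB, as given beside those results), pericyte markers to 67.3 to 285 (4 genes) and endothelial markers to 0.356 to 3.85 (5 genes). The 5 leukocyte markers summed to 16.9 to 20.5 CPM in the libraries labelled total knockdown and to at most 1.75 CPM in all others. Cd68 (15.6 and 15.9 CPM) and Csf1r (1.25 and 4.52) made up nearly all of the former. Ptprc and Cd3e had 0 counts in both of these libraries, and Adgre1 had 0 and 1.

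Along the chromosome the order was Mrs2, Nrsn1, Hdgfl1, a block of prolactin genes, 2610307P16Rik, Sox4, Cdkal1, E2f3 and Mboat1, as GENCODE M21 lists it. 2610307P16Rik and Sox4 lie on the same strand, and the lincRNA gene A330102I10Rik lies beside Sox4 on the other. The bases before the starts of 3 genes are printed: 2610307P16Rik as the candidate target, Sox4 as its nearest coding neighbour, and E2f3 as a neighbour that moved the other way with PDGF-BB. Each line holds 250 bases from RefSeq (GRCm38.p6), 5′ to 3′ on the minus strand, the strand of all 3 genes. Capitals mark a match of the SOX core ACAANG or of the E2F core TTTNNCGC on either strand. The windows are chr13:28885423-28885672 for 2610307P16Rik, chr13:28953700-28953949 for Sox4 and chr13:29986064-29986313 for the first start of E2f3.
2610307P16Rik: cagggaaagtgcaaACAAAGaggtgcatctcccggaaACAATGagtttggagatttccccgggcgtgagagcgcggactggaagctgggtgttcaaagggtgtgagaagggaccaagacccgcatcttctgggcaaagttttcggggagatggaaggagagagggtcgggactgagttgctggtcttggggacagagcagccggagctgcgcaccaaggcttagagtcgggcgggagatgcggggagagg
Sox4: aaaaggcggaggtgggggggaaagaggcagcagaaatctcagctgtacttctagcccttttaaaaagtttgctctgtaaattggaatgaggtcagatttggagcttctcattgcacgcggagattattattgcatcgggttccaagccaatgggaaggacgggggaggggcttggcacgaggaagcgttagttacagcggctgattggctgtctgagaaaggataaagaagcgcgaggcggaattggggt
E2f3: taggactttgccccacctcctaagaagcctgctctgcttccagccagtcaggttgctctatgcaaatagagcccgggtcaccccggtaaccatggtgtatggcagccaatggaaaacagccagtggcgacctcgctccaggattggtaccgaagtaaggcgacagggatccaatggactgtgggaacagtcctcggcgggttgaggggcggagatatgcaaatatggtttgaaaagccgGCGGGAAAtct
The 2610307P16Rik window held 2 SOX core matches, ACAAAG and ACAATG, and 36.3% of 32851 RefSeq windows of 250 bases held at least 1. The Sox4 window held no match of the SOX core, the E2F core or the SRF CArG box. The E2f3 window held 1 E2F match, GCGGGAAA, which reads TTTNNCGC on the other strand, and 4.28% of all windows held this core. RefSeq lists a second start window for E2f3, which held 0 matches of any of the 3 motifs. Of the neighbours whose windows are not printed, Cdkal1 held 2 SOX core matches, CTTTGT and ACAACG, of which the first lies on the other strand, and Mboat1 and Nrsn1 held 0 matches. The E2F and SOX cores share no matched bases in these windows.

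2610307P16Rik, the candidate target, was first compared between each perturbation and its control. In the antisense control of run 2 it stood at 7.66 and 6.37 CPM (batches P17 and P18), and in the libraries labelled total knockdown at 9.73 and 8.29 CPM. Both libraries labelled total knockdown were thus above both controls, the opposite of what the label names. The log2 fold change (log2FC) was 0.36 (SE 0.33) and did not pass the test (edgeR quasi-likelihood, adjusted p = 0.739). Gene counts cannot show whether single transcripts of the gene went down, and the table lists 242 transcripts for it against 7 in M21.

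With overexpression the gene rose far above its own range. The control plasmid gave 8.69, 6.55 and 4.03 CPM (P17 to P19), and overexpression gave 604, 916 and 629 CPM. The groups did not overlap, and the fold change was 111 (log2 6.79, SE 0.31, adjusted p = 1.88e-05). Among all 15350 genes tested in run 2, 1.65% were called in this comparison, and 1 of 6 tested members, 2610307P16Rik itself, was called.

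The long knockdown lowered 2610307P16Rik in both of its settings. Untreated controls of run 3 stood at 6.01, 5.20, 4.94 and 5.93 CPM (P16 to P19), and untreated long knockdown at 2.15, 2.80, 3.48 and 3.08 CPM. No knockdown library reached a control library, and the level was 52.1% of the control (log2FC -0.95, SE 0.19, adjusted p = 8.32e-04). With angiotensin II the controls stood at 4.91, 6.13, 5.31 and 4.69 CPM and long knockdown at 2.62, 3.08, 2.60 and 3.91 CPM. Here too the groups did not overlap, at 58.0% of the control (log2FC -0.79, SE 0.19, adjusted p = 0.00372). The difference between both knockdown effects was 0.15 on the log2 scale (SE 0.26) and did not pass the test (adjusted p = 1.00).

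PDGF-BB alone, in control cells without any knockdown, also lowered the gene. Its level with PDGF-BB was 4.82, 3.34, 2.95 and 3.31 CPM, below all 4 untreated controls given above, with the P16 library closest to them. The log2FC was -0.62 (SE 0.18, adjusted p = 0.0101). Over the 5 groups of run 3 the mean level was highest in the untreated control, at 5.52 ± 0.53 CPM (SD, n = 4), followed by the angiotensin II control at 5.26 ± 0.63. PDGF-BB followed at 3.604 ± 0.829 CPM, long knockdown with angiotensin II at 3.05 ± 0.61 and untreated long knockdown at 2.87 ± 0.56 (SD, n = 4 each). The first pair differed by less than its SD, as did the last pair, and PDGF-BB and long knockdown libraries overlapped.

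**Figure D1:**
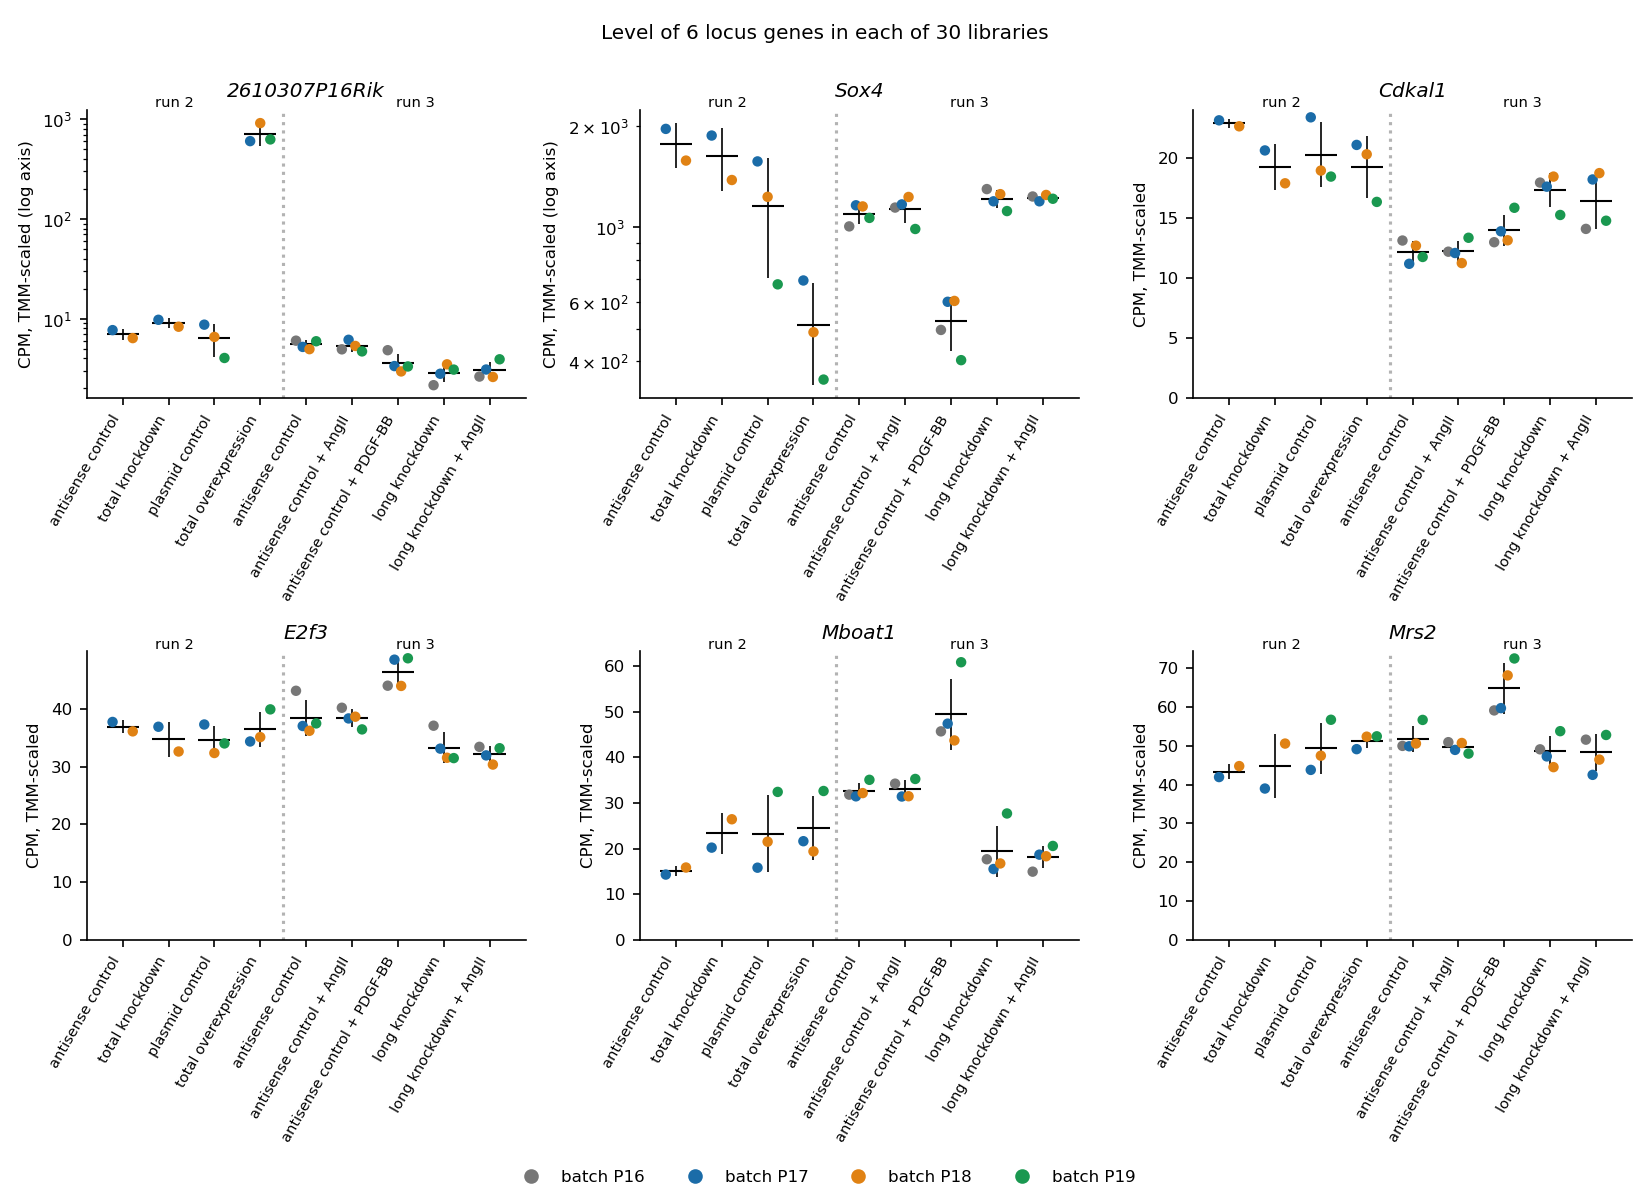
Level of the 6 tested locus genes in CPM (TMM-scaled) in each of 30 libraries, by group (horizontal axis) and batch (colour); lines mark the group mean and SD, the dotted line separates run 2 from run 3, and the axes of 2610307P16Rik and Sox4 are logarithmic. 2610307P16Rik stands at 604 to 916 CPM with overexpression and at 2.15 to 9.73 CPM elsewhere, and Sox4 is lowest with overexpression and with PDGF-BB.

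Sox4, the SoxC transcription factor next to 2610307P16Rik, was the most abundant gene of the locus per kilobase in the antisense controls of both runs. Per kilobase of M21 exon, the antisense control of run 3 held 228.7 ± 15.5 CPM of Sox4 (SD, n = 4), against 8.92 ± 0.45 for Mboat1, 7.08 ± 0.58 for E2f3 and 6.80 ± 0.43 for Mrs2. 2610307P16Rik followed at 1.68 ± 0.16 and Cdkal1 at 0.954 ± 0.069 CPM per kilobase, a scale that takes M21 exon lengths and not those of the annotation behind the table.

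Sox4 fell with PDGF-BB, in every batch. Untreated controls stood at 1006, 1162, 1153 and 1066 CPM (P16 to P19) and PDGF-BB libraries at 496, 601, 605 and 404 CPM. All 4 PDGF-BB libraries were below all controls, at 48.0% of the control level (log2FC -1.06, SE 0.10, adjusted p = 6.31e-08). Log2 ratios within a batch ran from -1.40 in P19 to -0.93 in P18.

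With overexpression of 2610307P16Rik, Sox4 was lower in each of 3 batches, and whether this passed the test depended on the model. The control plasmid gave 1568, 1231 and 677 CPM (P17 to P19) and overexpression gave 695, 488 and 353 CPM. The P17 overexpression library was above the P19 control library, so the groups overlapped, while within batches the log2 ratios were -1.17, -1.33 and -0.94. Without the batch as a block the log2FC was -1.18 (SE 0.33, adjusted p = 0.130). With the batch as a replicate block it was -1.15 and passed (adjusted p = 2.60e-05), and 17.7% of all genes passed with that block. Without the P19 control library it was -1.45 (adjusted p = 0.0199), and DESeq2 gave an adjusted p of 0.00586. Cell type markers moved in the same libraries. Pdgfra, a fibroblast marker, stood at 43.9, 49.2 and 12.8 CPM against 30.9, 23.6 and 7.94 in the control plasmid, and Rgs5, a pericyte marker, at 128, 179 and 38.5 CPM against 39.1, 50.2 and 16.95. Neither passed without the block (adjusted p = 0.550 and 0.178), and with it both were higher (log2FC 0.76 and 1.60, adjusted p = 0.00127 and 5.65e-05). With the block Lum (-1.35, adjusted p = 0.0237) and Cspg4 (-0.34, adjusted p = 0.00622) were lower and Csf1r, a leukocyte marker of few counts, was higher (adjusted p = 0.0418). Summed fibroblast markers were 2962 to 4007 CPM against 2728 to 3990, and pericyte markers 109 to 272 against 103 to 165. Their part in the Sox4 result was not tested.

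**Figure D2:**
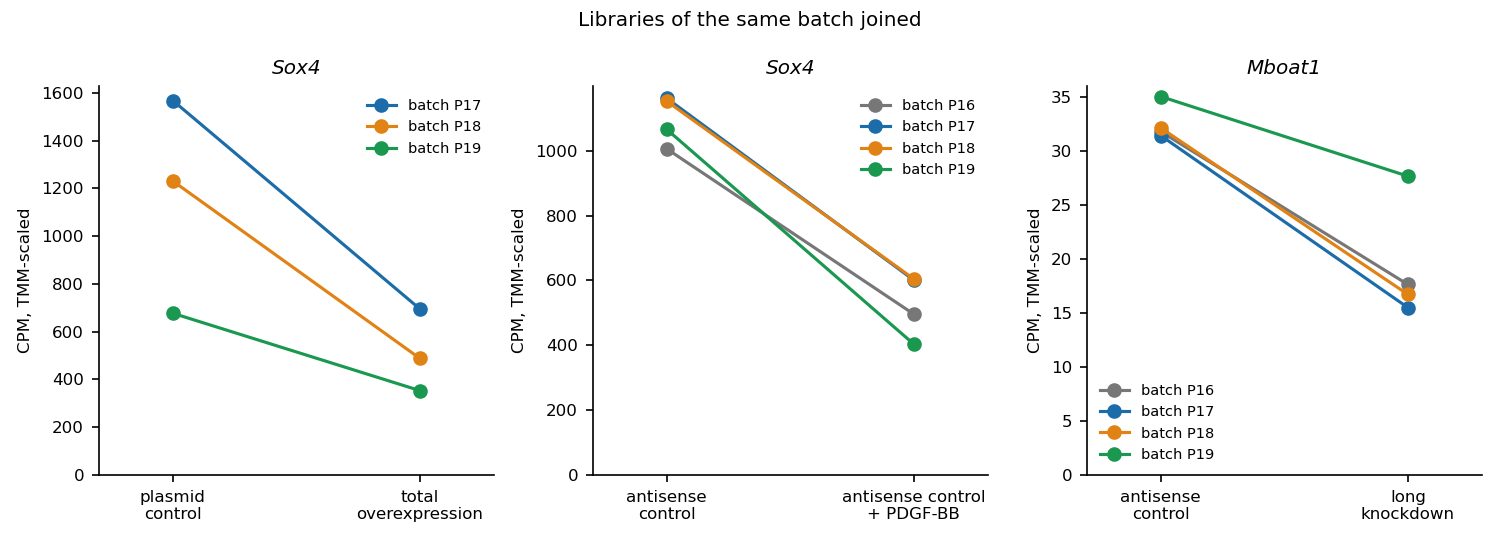
Levels in CPM (TMM-scaled) of Sox4 with overexpression and with PDGF-BB, and of Mboat1 with long knockdown, each beside its control; lines join libraries of the same batch. Every line falls, and in the overexpression panel the controls themselves spread from 677 to 1568 CPM.

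Sox4 did not pass the test in long knockdown, untreated or with angiotensin II. Untreated long knockdown stood at 1298, 1194, 1254 and 1117 CPM, a log2FC of 0.15 (SE 0.10, adjusted p = 0.289), with both groups overlapping. With angiotensin II, controls stood at 1144, 1169, 1230 and 988 CPM and long knockdown at 1234, 1194, 1247 and 1215 CPM (log2FC 0.11, SE 0.10, adjusted p = 0.447). Long knockdown was above its control in all 4 batches in either setting, by log2 ratios of 0.02 to 0.37.

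In run 2 the antisense control held 1958 and 1577 CPM of Sox4 and the libraries labelled total knockdown 1871 and 1381 CPM. These groups overlapped (log2FC -0.12, SE 0.40, adjusted p = 0.955). Control plasmid libraries were lower than both antisense controls, by a log2FC of -0.61 (SE 0.36, adjusted p = 0.598). This value leans on the P19 plasmid library, which has no antisense partner: without it the log2FC was -0.34 (adjusted p = 1.00), with the replicate block -0.39 (adjusted p = 0.0783), and within P17 and P18 the log2 ratios were -0.32 and -0.36. It was a comparison where 1.18% of genes were called and 0 of 6 members. The control plasmid is the reference of the overexpression comparison and the antisense control that of the libraries labelled total knockdown.

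The counting of Sox4 differed between the runs. Its values were whole numbers in all 10 libraries of run 2 and fractions in all 20 of run 3, and the same held for A330102I10Rik and Mrs2. 2610307P16Rik had fractions in 8 of 20 libraries of run 3 and E2f3 in 7 of 20, against 0 of 10 in run 2 for either. Expected counts are fractions where reads fit more than 1 gene. Strandedness is not given in the sources used here, so reads of Sox4 and of RNA from the opposite strand cannot be told apart. M21 lists the lincRNA gene Gm26735 there, which shares 2616 exon bases with Sox4 and is not among the genes of the table used here.

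E2f3 encodes an E2F transcription factor that drives genes of S phase entry. With PDGF-BB it rose: controls stood at 43.1, 37.0, 36.2 and 37.5 CPM (P16 to P19) and PDGF-BB libraries at 44.0, 48.5, 44.0 and 48.8 CPM. The groups did not overlap, though the P16 pair was almost level, with a log2 ratio of 0.03 against 0.28 to 0.39 in the other batches. The log2FC was 0.27 (SE 0.07, adjusted p = 0.00420). In this comparison 43.6% of all 15103 genes of run 3 were called, 23.6% higher and 20.0% lower, beside 5 of the 6 tested members, 3 higher and 2 lower.

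E2f3 was slightly lower in long knockdown. Untreated knockdown libraries stood at 37.1, 33.1, 31.5 and 31.5 CPM, of which the P16 library lay within the control range. The log2FC was -0.21 (SE 0.07, adjusted p = 0.0360). The call was lost without a filter on low counts (adjusted p = 0.120), with only the groups compared in the fit (0.1001), and in 4 of 8 fits that left out 1 library, the P16 control (0.151) or the P17 (0.0769), P18 (0.109) or P19 (0.0812) knockdown. With angiotensin II the controls were at 40.2, 38.3, 38.6 and 36.4 CPM and the knockdown at 33.4, 31.9, 30.4 and 33.2 CPM. These groups did not overlap (log2FC -0.25, SE 0.07, adjusted p = 0.0119), and the call was lost without the filter (0.0639). In run 2 all 10 libraries lay between 32.4 and 39.9 CPM and no comparison called E2f3.

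Mboat1 encodes a membrane-bound acyltransferase that adds fatty acids to lysophospholipids, and it showed the largest change in long knockdown among the 5 tested neighbours. Untreated controls stood at 31.8, 31.5, 32.2 and 35.1 CPM, and long knockdown at 17.7, 15.5, 16.7 and 27.7 CPM. All knockdown libraries were below all controls, with P19 the closest. The log2FC was -0.75 (SE 0.14, adjusted p = 6.91e-04). With angiotensin II the controls at 34.2, 31.4, 31.5 and 35.3 CPM and the knockdown at 14.9, 18.7, 18.3 and 20.6 CPM were further apart (log2FC -0.87, SE 0.15, adjusted p = 1.89e-04). The difference between both effects, -0.12 (SE 0.20), did not pass the test (adjusted p = 1.00).

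PDGF-BB raised Mboat1, to 45.7, 47.4, 43.7 and 60.9 CPM, above every control library (log2FC 0.60, SE 0.14, adjusted p = 0.00187). In run 2 the antisense control held 14.3 and 15.9 CPM and the libraries labelled total knockdown 20.2 and 26.4 CPM. These did not overlap, but the log2FC of 0.63 (SE 0.34) missed the threshold (adjusted p = 0.505). With the replicate block it was 0.62 and passed (adjusted p = 0.0163), where 14.4% of all genes passed. Control plasmid libraries, at 15.8, 21.5 and 32.4 CPM, and overexpression libraries, at 21.6, 19.4 and 32.6 CPM, covered nearly the same range (log2FC 0.08, SE 0.28, adjusted p = 0.932).

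Cdkal1 encodes a methylthiotransferase that modifies a lysine tRNA, and intron variants of its human counterpart are known from studies of type 2 diabetes. It was higher in long knockdown: untreated controls stood at 13.2, 11.2, 12.7 and 11.8 CPM and knockdown at 17.98, 17.6, 18.5 and 15.3 CPM. The groups did not overlap, with a log2FC of 0.51 (SE 0.11, adjusted p = 0.00144). With angiotensin II, controls at 12.2, 12.1, 11.3 and 13.4 CPM were again below knockdown at 14.1, 18.2, 18.8 and 14.8 CPM (log2FC 0.43, SE 0.11, adjusted p = 0.00542). Within batches the ratios with angiotensin II ran from 0.15 in P19 to 0.74 in P18. With PDGF-BB, Cdkal1 stood at 13.01, 13.9, 13.2 and 15.9 CPM and overlapped its control (log2FC 0.20, SE 0.11, adjusted p = 0.144). In run 2, where all libraries held 16.4 to 23.4 CPM, it was called in no comparison.

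Mrs2 encodes a magnesium channel of the inner mitochondrial membrane. It rose with PDGF-BB, from 50.0, 49.9, 50.6 and 56.7 CPM to 59.2, 59.8, 68.2 and 72.6 CPM, without overlap (log2FC 0.33, SE 0.08, adjusted p = 0.00267). In long knockdown it stood at 49.1, 47.3, 44.5 and 53.8 CPM, overlapping the controls (log2FC -0.09, SE 0.08, adjusted p = 0.443). In run 2 it lay between 39.0 and 56.8 CPM, and no comparison other than PDGF-BB called it. In M21 the gene overlaps Gpld1, which lies on the other strand, over 2466 exon bases, so reads there cannot be assigned to either without strand.

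Hdgfl1, an HDGF-like gene, had 0 counts in all 30 libraries, and Nrsn1, which encodes a vesicle membrane protein of neurons, had 15 counts in all, spread over 9 libraries with at most 4 in any. Neither was tested, and no difference between groups was detectable for either at this depth.

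In the untreated long knockdown 25.0% of all genes were called, 12.3% higher and 12.8% lower. Of the 6 tested members 4 were called, Cdkal1 higher and 2610307P16Rik, E2f3 and Mboat1 lower, and their median log2FC was -0.15 against 0.02 over all genes. With angiotensin II 26.7% of all genes were called, 13.4% higher and 13.3% lower, beside the same 4 members in the same directions. In the comparison of libraries labelled total knockdown with their control 2.07% of all genes were called and 0 of 6 members. The median log2FC with PDGF-BB was 0.23 over the 6 members and -0.02 over all genes. The untreated antisense control is shared by the long knockdown, PDGF-BB and angiotensin II comparisons, so their values stand side by side only.

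Markers of other cell types moved in the same comparisons. In untreated long knockdown 2 of the 4 tested fibroblast markers were higher and 1 lower, where 12.3% of all genes were higher and 12.8% lower. Pdgfra, a receptor of PDGF, stood at 65.7, 61.2, 50.8 and 11.99 CPM (P16 to P19) against 13.8, 18.5, 21.1 and 7.18 (log2FC 1.66, SE 0.53, adjusted p = 0.0291), and the P19 knockdown library lay within the control range. The proteoglycan gene Lum had 92, 93, 85 and 23 counts against 17, 25, 17 and 23 (log2FC 2.06, SE 0.53, adjusted p = 0.00727). Col1a1, a collagen chain, was lower at 1275 to 1456 CPM against 1788 to 2428 (log2FC -0.64, SE 0.10, adjusted p = 1.32e-04). The Pdgfra call was lost in 5 of 8 fits without 1 library (adjusted p up to 0.0905), and the Lum and Col1a1 calls in 0 of 8. With the replicate block, where 40.6% of all genes were called, Dcn was higher too (log2FC 0.25, adjusted p = 0.00435, against 0.0855 without), above its control in 4 of 4 batches without overlap.

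The pericyte marker Rgs5 rose from 6.93, 8.99, 6.68 and 0.779 CPM to 86.7, 37.2, 28.5 and 11.5 CPM in untreated long knockdown, without overlap (log2FC 2.84, SE 0.79, adjusted p = 0.0147, and 0.0642 without the P16 knockdown library). It was the 1 called of 2 tested pericyte markers, and with the replicate block Cspg4 was lower (-0.29, adjusted p = 0.00402). Of 7 tested smooth muscle markers Myh11 (log2FC 3.74) and Smtn (0.60) were higher and Myocd (-1.33) lower there. Of all genes 12.3% were higher and 12.8% lower. Myh11 was a gene of low level, at 0 in 4 of 30 libraries. With the block Des was lower too (-1.68, adjusted p = 0.00694). Summed levels in untreated long knockdown were 3150 to 3553 CPM for fibroblast and 79.1 to 157 CPM for pericyte markers, against 3414 to 3890 and 67.3 to 111 in the control. With angiotensin II, Rgs5 (log2FC 2.97, adjusted p = 0.0128), Pdgfra (1.76, adjusted p = 0.0221, lost in 5 of 8 fits without 1 library) and Col1a1 (-0.50, adjusted p = 0.00134) were called in long knockdown too, where 26.7% of all genes were. Smooth muscle markers were also called there, among them Myh11, higher, and Myocd, lower. The Myh11 log2FC ran from 1.588 to 2.956 over the alternatives, and its call was lost in 6 of 12. For Myocd it ran from -1.604 to -1.197, with the call kept in 14 of 14. With the replicate block, where 41.3% of all genes were called, Lum (1.26, adjusted p = 0.0101), Dcn (0.18, adjusted p = 0.0366) and Pecam1 (1.08, adjusted p = 0.0328) were higher as well, each in 4 of 4 batches.

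With PDGF-BB 3 of the 4 tested fibroblast markers were lower and 1 higher, where 43.6% of all genes were called. Dcn fell from 1442, 1646, 1663 and 1618 CPM to 578, 752.5, 764 and 563 CPM (log2FC -1.26, SE 0.11, adjusted p = 1.43e-08). Pdgfra fell by 2.27 on the log2 scale (adjusted p = 0.00619) and Lum by 2.37 (adjusted p = 0.0112), while Col1a1 rose by 0.49 (adjusted p = 7.70e-04). The Lum value rests on few reads, 1, 0, 10 and 2 counts with PDGF-BB against 17, 25, 17 and 23. Its log2FC ran from -3.951 to -1.96 over the alternatives, with the call kept in 14 of 14. The PDGF-BB and control libraries did not overlap for Dcn, Pdgfra, Lum or Col1a1, and the share of all genes without overlap is not given here. Dpt, a fibroblast marker too, had at most 4 counts in any of these 8 libraries. Summed fibroblast markers were 2994 to 4216 CPM with PDGF-BB. Of 7 tested smooth muscle markers the actin gene Acta2 fell from 194 to 223 CPM over the controls to 96.5 to 121 CPM (log2FC -0.94, SE 0.14, adjusted p = 2.15e-05), and Smtn rose by 1.03 (adjusted p = 1.78e-08). The pericyte marker Cspg4 rose by 0.45 (adjusted p = 0.00808), with overlap. The endothelial marker Pecam1 had 4 to 13 counts against 18 to 33 (log2FC -1.65, SE 0.63, adjusted p = 0.0397), a call lost in 5 of 8 fits without 1 library (adjusted p up to 0.104). The part of a change in cell makeup in the results on the locus genes was not tested, and fewer cells of a type and less RNA per cell cannot be told apart in these bulk libraries.

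**Figure D3:**
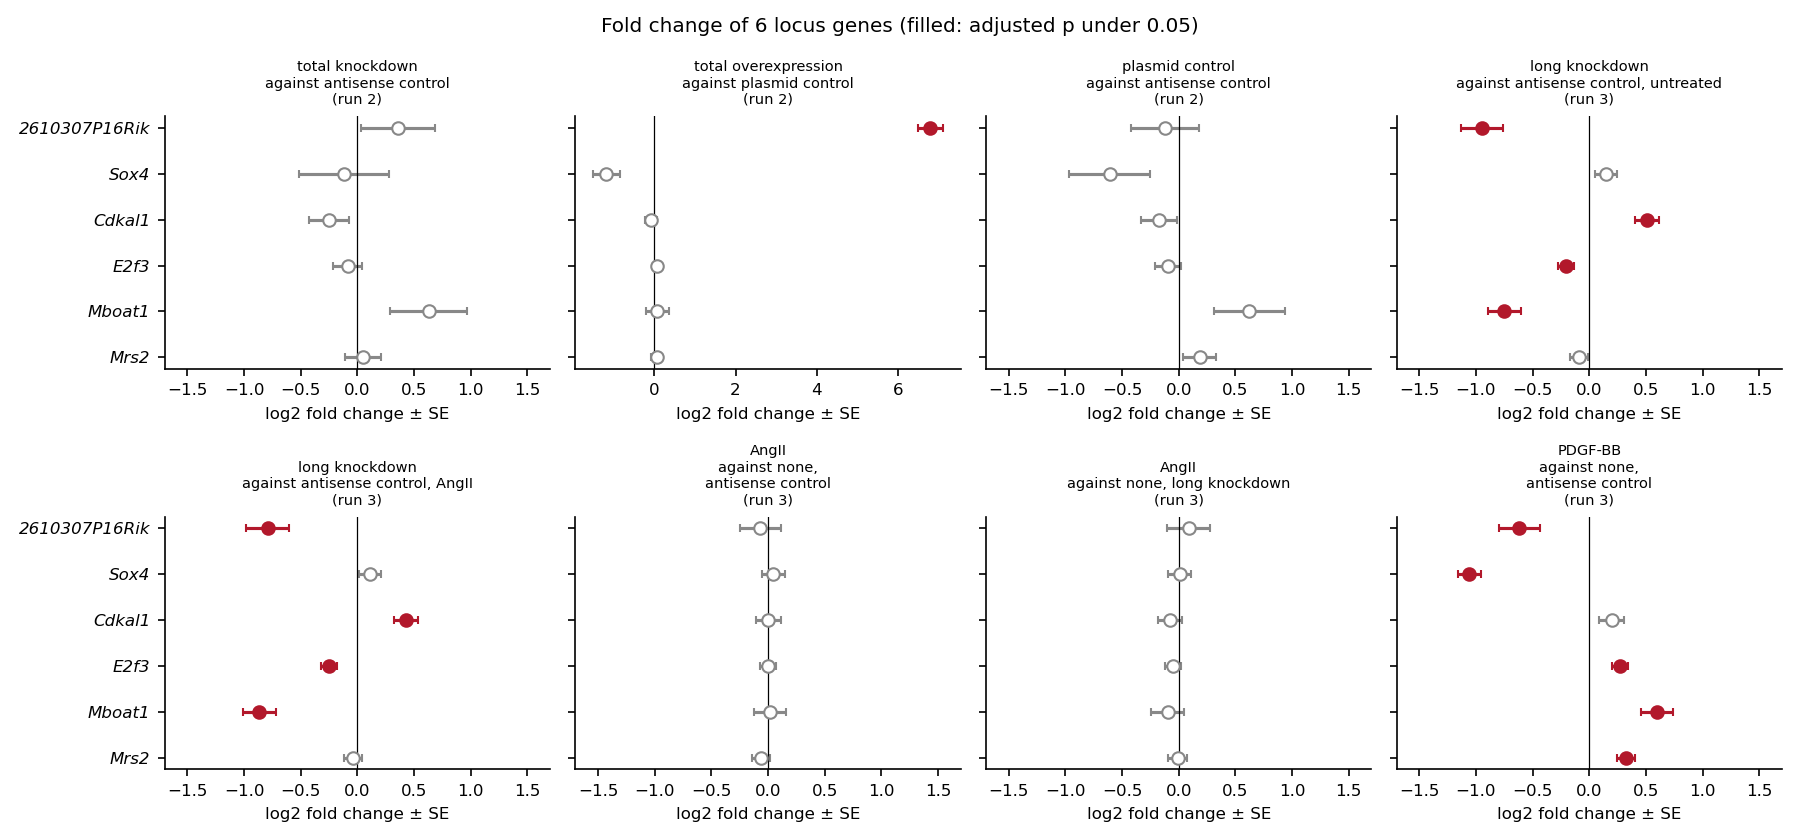
Log2 fold change with its SE for the 6 tested locus genes in 8 comparisons; filled points passed an adjusted p of 0.05, and the overexpression panel has a wider axis than the others. Long knockdown shows the same 4 filled genes with and without angiotensin II, and both angiotensin II panels show none.

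With angiotensin II no tested member passed the test. In control cells the 6 log2FC values ran from -0.07 for 2610307P16Rik (SE 0.18) to 0.05 for Sox4 (SE 0.10). In long knockdown cells they ran from -0.10 for Mboat1 (SE 0.15) to 0.09 for 2610307P16Rik (SE 0.19). No gene passed the test over the whole table: edgeR called 0 of 15103 (0%) in either cell state, with 156 and 174 genes at an unadjusted p under 0.05, and DESeq2 called 1 and 0. Agtr1a, the neighbour beyond Mboat1 that encodes a receptor of angiotensin II, had 0 counts in 25 of 30 libraries and at most 3 in any, so it was not tested. Agtr1b, another gene for this receptor, was not read here. A count of 0 allows up to 3 counts in a library.

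A list of 16 further coding genes was counted for comparison, 15 outer neighbours on both sides of the locus and Dcdc2a, which lies between Mrs2 and Nrsn1 and had 2 counts in all. In untreated long knockdown 3 of 12 tested were called, all lower, with a median log2FC of -0.26, where 25.0% of all genes were called and 12.8% were lower. The share called thus equalled that of all genes. With the replicate block 1 was higher and 5 lower, where 40.6% of all genes were called. Foxq1, a forkhead transcription factor, fell from 22.6, 16.9, 17.5 and 13 CPM to 6.31, 8.46, 8.21 and 6.26 CPM (log2FC -1.26, SE 0.20, adjusted p = 1.13e-04). Ripor2 fell by 0.74 (SE 0.23, adjusted p = 0.0236), and its P19 knockdown library of 16.1 CPM lay within the control range of 13.9 to 17.9. The Ripor2 call was lost in 5 of 8 fits without 1 library, at adjusted p up to 0.0854. With angiotensin II the same 3 genes were lower, among them Foxq1 (-1.19, adjusted p = 2.07e-04) and Ripor2 (-0.99, adjusted p = 0.00372).

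Foxq1 was higher in both run 2 comparisons with a perturbation. Overexpression libraries held 13.4, 11.2 and 12.9 CPM against 3.24, 3.08 and 5.27 in the control plasmid (log2FC 1.697, SE 0.31, adjusted p = 0.0288). Its neighbour Foxf2, a forkhead factor of mesenchyme, held 14.6, 14.4 and 13.8 CPM against 7.34, 6.99 and 7.09 (log2FC 1.00, SE 0.20, adjusted p = 0.0421), and no other of 13 tested outer neighbours was called, where 1.65% of all genes were. Either call was lost in 5 of 6 fits that left out 1 library, at adjusted p up to 0.134 for Foxq1 and 0.160 for Foxf2. Libraries labelled total knockdown held 8.93 and 9.45 CPM of Foxq1 against 3.25 and 1.43 (log2FC 1.96, SE 0.39, adjusted p = 0.0360). In that comparison 2 of 13 tested were higher and 0 lower, where 2.07% of all genes were called in either direction. With the replicate block 4 were higher and 0 lower, where 14.4% of all genes were called in either direction.

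D130043K22Rik, a membrane protein gene whose human counterpart is studied in dyslexia, had 212 and 285 counts in libraries labelled total knockdown and 2 and 4 in their control (adjusted p = 0.00576). At most 12 counts were found in any other library. The leukocyte markers Cd68 (312 and 355 counts against 6 and 12) and Csf1r (25 and 101 against 3 and 3) were higher in the same 2 libraries (adjusted p = 0.00576 and 0.0262, each lost in 3 of 4 fits without 1 library, up to 0.0878 and 0.296), while Ptprc, which defines leukocytes, was at 0 in them. The smooth muscle marker Myh11 was higher there too, at 86 and 149 counts against 20 and 22 (log2FC 2.47, adjusted p = 0.0239, lost in 3 of 4 fits without 1 library), and Des stood at 39 and 52 against 6 and 7 (adjusted p = 0.0794, and 0.00460 with the replicate block). Fibroblast markers were lower there with the block, Pdgfra at 49.9% of the control (adjusted p = 7.74e-04, and 0.618 without) and Lum at 31.2% (adjusted p = 0.00875, and 0.608 without), both without overlap. Rgs5 (1.03), Cspg4 (0.40) and Pecam1 (1.45) were higher with the block only (adjusted p = 0.00157, 0.00735 and 0.0261). The part of RNA of other cells in these results was not tested. Leaving out single libraries ended the Foxq1 call in each of 4 fits (adjusted p 0.0834 to 0.256) and the D130043K22Rik call in 3 of 4 (up to 0.101).

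PDGF-BB gave 3 higher and 3 lower of 12 tested outer neighbours, a share near the 43.6% of all genes called with PDGF-BB (23.6% higher and 20.0% lower). Gmnn, which encodes the replication licensing inhibitor geminin, rose from 8.40, 8.83, 7.13 and 10.5 CPM to 38.8, 38.3, 36.8 and 50.0 CPM (log2FC 2.23, SE 0.20, adjusted p = 4.12e-08). Acot13, an acyl-CoA thioesterase, fell from 28.4, 27.5, 24.7 and 37.3 CPM to 16.1, 16.7, 17.4 and 19.8 CPM (log2FC -0.76, SE 0.13, adjusted p = 9.29e-05). Neither group pair overlapped.

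**Figure D4:**
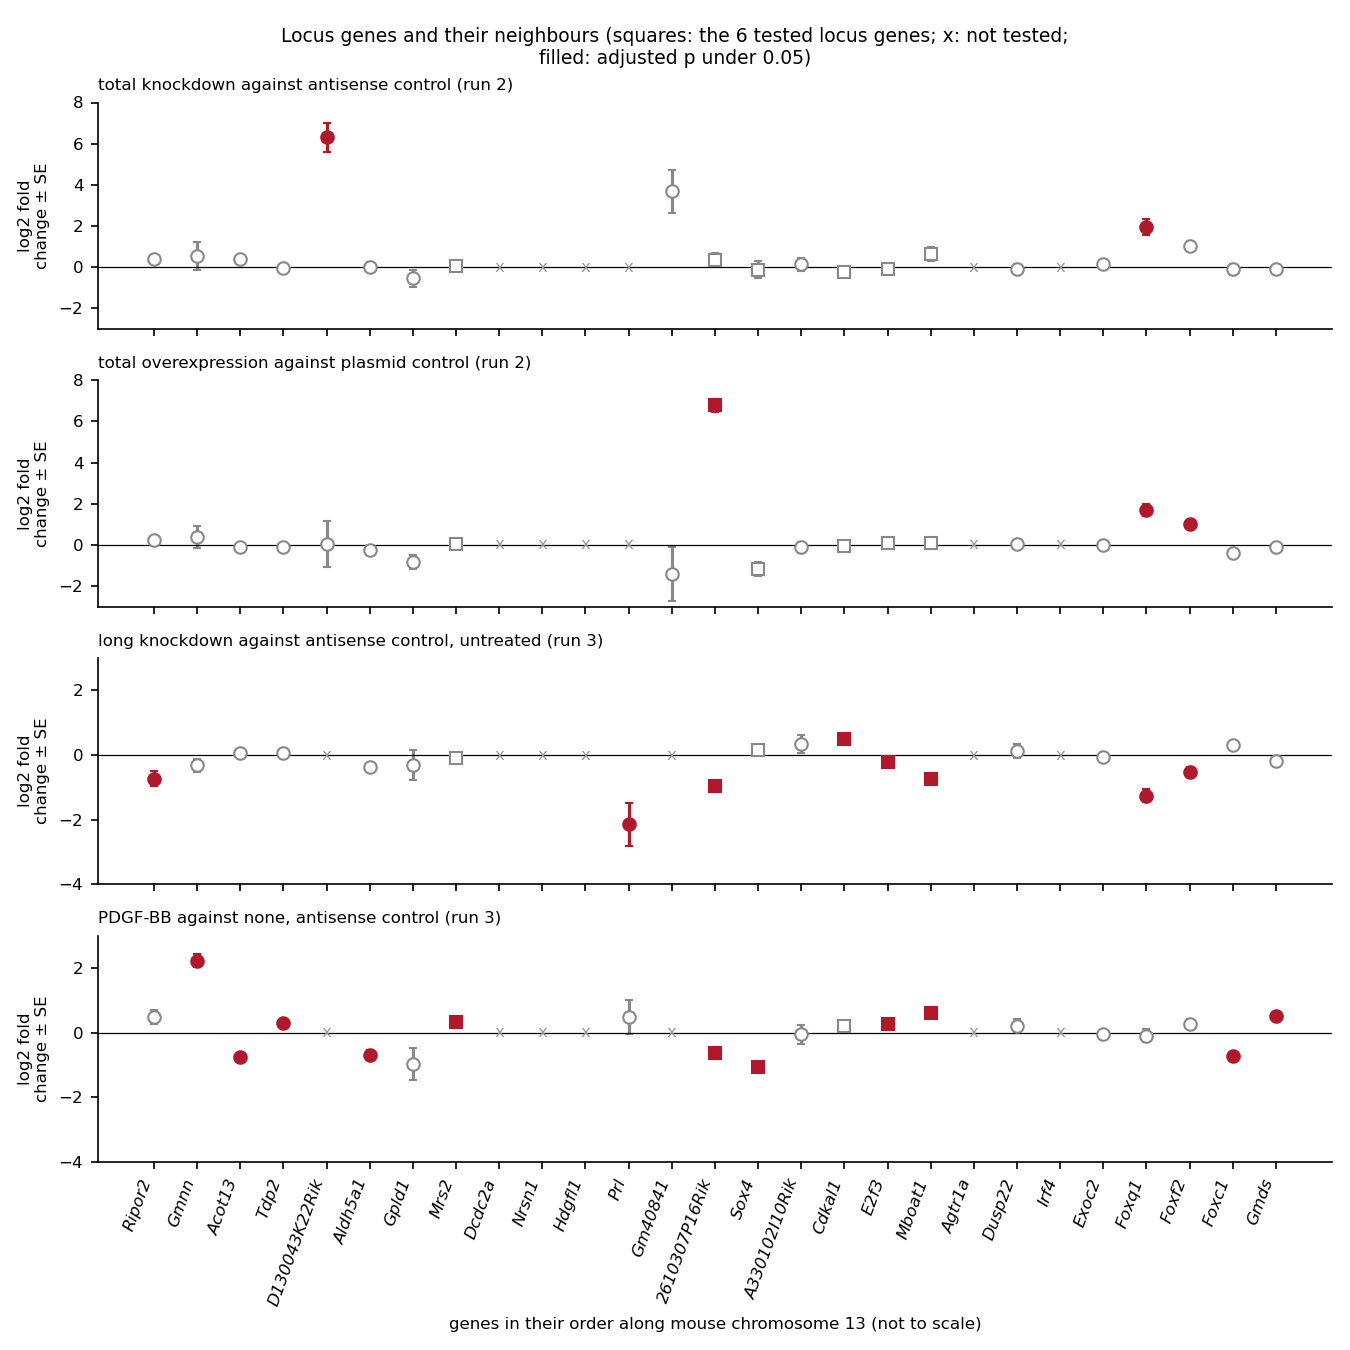
Log2 fold change with its SE for the locus genes (squares), 4 genes between them (Dcdc2a, Prl, Gm40841 and A330102I10Rik) and 15 outer neighbours (circles), in their order along chromosome 13, for 4 comparisons; filled points passed an adjusted p of 0.05 and crosses were not tested. With untreated long knockdown Cdkal1 is filled above 0 beside E2f3 and Mboat1, which are filled below it.

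Between Mrs2 and Mboat1 M21 lists 68 further genes, of which 65 were in the table, 42 had no count in any library and 23 had some. Of 23 prolactin family genes 10 had any count. Prl, the pituitary hormone gene, had 3 to 21 counts per untreated control and 1 to 4 in long knockdown (log2FC -2.14, SE 0.66, adjusted p = 0.0219), and 5 to 23 against 1 to 4 with angiotensin II (adjusted p = 0.0163). Both calls rest on few reads. They were lost without the P19 control library (adjusted p = 0.0763 and 0.131), and the untreated one also without the P16 (0.0608) or P17 (0.0675) knockdown library. Gm40841, the lincRNA gene next to 2610307P16Rik on its other side, had 35 and 57 counts in libraries labelled total knockdown against 5 and 2 (adjusted p = 0.121, and 0.0109 with the replicate block). A330102I10Rik, beside Sox4, was higher in long knockdown with angiotensin II (log2FC 0.88, SE 0.29, adjusted p = 0.0313), a call lost in 8 of 14 alternatives.

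Other SOX genes were read beside Sox4. Of 18 such genes 6 were tested in run 2 and 5 in run 3. In untreated long knockdown 2 of the 5 were higher and 1 lower, where 25.0% of all genes were called, and with angiotensin II 1 was higher and 1 lower, where 26.7% were. Sox12, a SoxC gene like Sox4, was lower in long knockdown, at 4.25, 4.51, 4.46 and 3.66 CPM against 6.89, 8.66, 6.73 and 4.30 (log2FC -0.65, SE 0.20, adjusted p = 0.0200). The groups overlapped through the P19 control alone, and the call was lost without the P17 control (adjusted p = 0.0786). With angiotensin II the fall was -0.89 (SE 0.20, adjusted p = 0.00259), without overlap.

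Sox11, the third SoxC gene, stood at 1.42 to 3.94 CPM in untreated controls and 0.841 to 1.80 in long knockdown (log2FC -0.93, SE 0.38, adjusted p = 0.0799, and 0.0211 with the replicate block). Sox9, a factor of cartilage and of smooth muscle cells that take on its traits, rose from 83.9, 76.6, 72.6 and 65.3 CPM to 142, 135, 123 and 104 CPM (log2FC 0.76, SE 0.11, adjusted p = 2.45e-05). It rose with angiotensin II too, by 0.73 (adjusted p = 3.66e-05). In run 2 neither Sox11 nor Sox12 was called, with log2FC values for overexpression of -0.09 (SE 0.56) and 0.10 (SE 0.26). With PDGF-BB, where Sox4 fell, 0 of the 5 tested SOX genes were called by edgeR, where 43.6% of all genes were, with 2 of them at an unadjusted p under 0.05. Sox9 (-0.26, adjusted p = 0.0568) was lower with the replicate block (adjusted p = 1.86e-04), and 1 of the 5 was lower without the P19 control library. Sox5 was called in untreated long knockdown (0.33, adjusted p = 0.0428), but the call was lost in 7 of 8 fits without 1 library (adjusted p up to 0.163), all but that without the P19 knockdown library, and in 9 of 14 alternatives in all. Sox15 had 23 and 20 counts in libraries labelled total knockdown and 1 and 0 in their control (adjusted p = 0.0298), a call lost without any 1 of these 4 libraries.

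A list of 10 genes reported elsewhere as SOX4 targets was read beside Sox4. With PDGF-BB 5 were lower and 2 higher, with a median log2FC of -0.48, where 20.0% of all genes were lower and 23.6% higher, with a median of -0.02. The 2 that were higher were Ezh2 and Tubb3, and Tubb3 (0.58, adjusted p = 0.0244) was lost without the P19 control (0.0694) or the P16 (0.0883) or P17 (0.0599) PDGF-BB library, which leaves 1. The extracellular matrix gene Tnc fell from 17.6, 26.3, 26.0 and 42.8 CPM to 8.02, 7.09, 8.90 and 8.91 CPM (log2FC -1.78, SE 0.30, adjusted p = 1.46e-04). Ezh2, the methyltransferase of Polycomb complex PRC2, rose from 63.5 to 68.9 CPM over the controls to 119 to 138 CPM (log2FC 0.92, SE 0.06, adjusted p = 9.34e-10).

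In untreated long knockdown, where Sox4 was not called, 5 of these 10 genes were higher and 2 lower (median 0.21), where 12.3% of all genes were higher and 12.8% lower (median 0.02). Without the P16 control or the P17 knockdown library 3 were higher, as both Dicer1 and Ago1, which act in the microRNA pathway, missed the threshold. Dicer1 (0.19, adjusted p = 0.0409) was lost in 9 of 14 alternatives, 7 of them fits without 1 library, at adjusted p up to 0.148. Ago1 (0.19, adjusted p = 0.0131) was lost in 3 of 14, those 2 fits (0.0613 and 0.0555) and that without a filter (0.121). The receptor gene Egfr rose to 231 to 268 CPM from 157 to 186 (log2FC 0.56, SE 0.07, adjusted p = 3.85e-06). The neuronal tubulin gene Tubb3 fell to 17.7 to 25.1 CPM from 25.3 to 40.7 (log2FC -0.72, SE 0.20, adjusted p = 0.0143, and 0.0515 without the P17 knockdown library, which leaves 1 lower). With angiotensin II 4 were higher and 2 lower, where 13.4% and 13.3% of all genes were, again with Tubb3 (-0.73, adjusted p = 0.0128) and Egfr (0.61, adjusted p = 1.49e-06) called. With overexpression 0 of 10 were called, and with the replicate block 5 were lower and 0 higher, where 8.33% of all genes were lower and 9.40% higher.

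**Figure D5:**
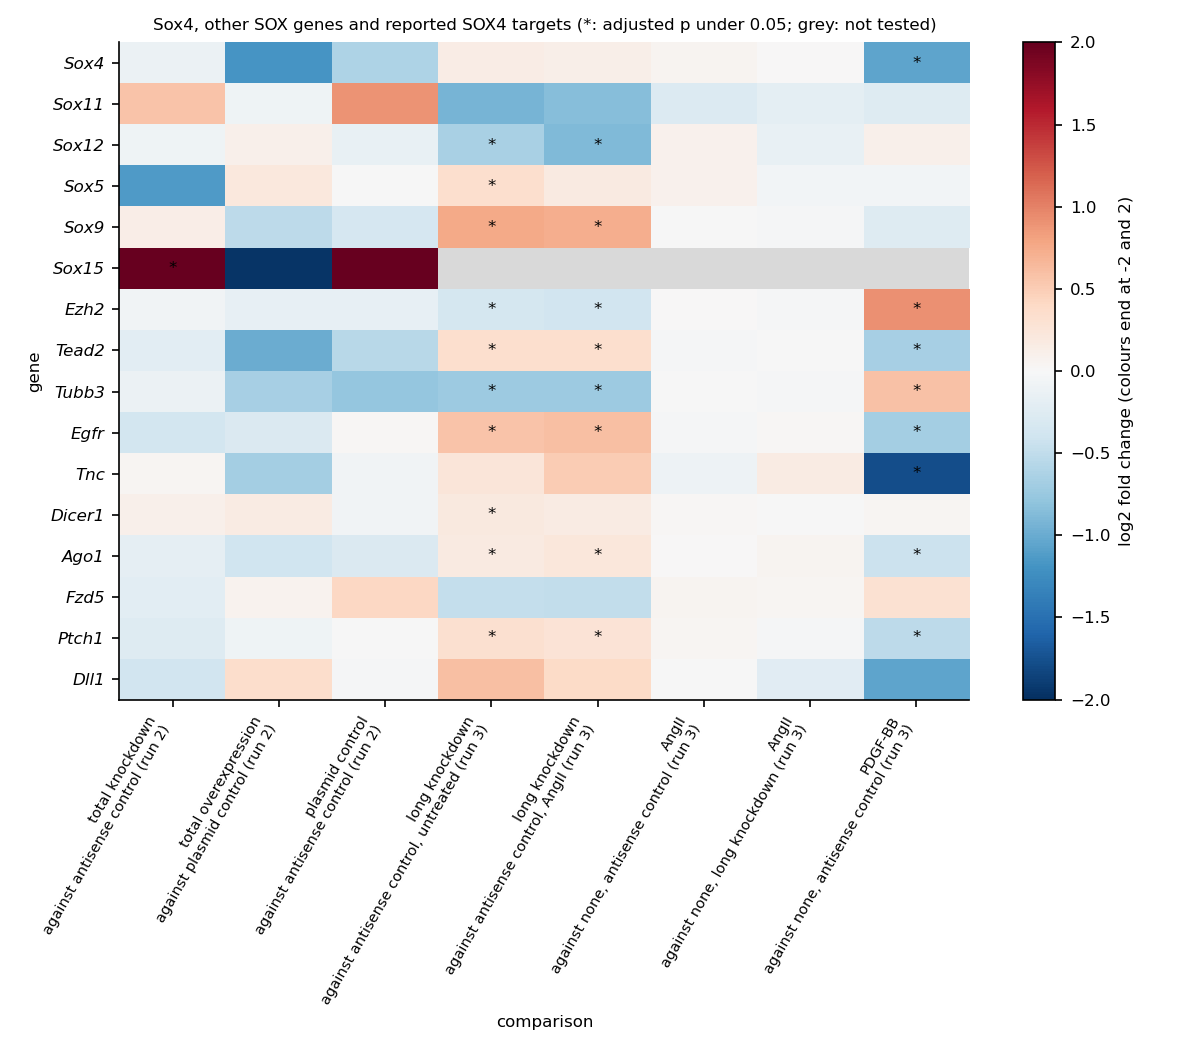
Log2 fold change (colour, ending at -2 and 2) of Sox4, 5 other SOX genes and 10 reported SOX4 targets in 8 comparisons; asterisks mark an adjusted p under 0.05 and grey fields were not tested. Sox4 carries an asterisk with PDGF-BB only, and none of the fields for angiotensin II carries one.

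Likeness across the 20 libraries of run 3 was read as a description. These libraries form 5 groups in 4 batches, so values largely follow the groups, and no test is given. Of 10574 genes with a mean of at least 5 CPM, the closest to 2610307P16Rik by Pearson r on log2 levels were the Wnt receptor gene Fzd6 (0.92), Lima1 (0.92), Arhgef18 (0.91), Susd6 (0.91) and Llgl2 (0.91). The most opposite were Trak1 (-0.93) and Asb3 (-0.92). Against its own neighbours 2610307P16Rik had r of 0.01 with Sox4, -0.80 with Cdkal1, 0.48 with Mboat1, 0.30 with E2f3 and -0.01 with Mrs2. Sox4 had r of -0.85 with Mrs2, -0.80 with E2f3, -0.79 with Mboat1 and 0.12 with Cdkal1. Closest to Sox4 were the matrix proteoglycan gene Dcn (0.99), Calcoco1 (0.98), Glul (0.98), Ldhb (0.98) and Nbr1 (0.98), and the most opposite were Ahcy (-0.99) and Cep76 (-0.98).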

How the data were processed

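Gene expression was measured by paired-end RNA-seq (75 bp reads) in 30 libraries. The values used are the expected counts of each gene, which the authors made with RSEM 1.3.1 and STAR 2.7.11b per the submitters' processing notes and deposited without scaling to depth. Those notes name GRCm39 and mm10 without saying which was used for what, and the annotation and strandedness are not given in the sources used here. Symbols came from GENCODE M21 and gene name tables, by identifier without version, and matched 51486 of 78334 identifiers, which hold 98.7% of all counts.

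Expected counts were rounded and fitted with edgeR 4.0.16 in R 4.3.3 (quasi-likelihood test, robust, TMM), 1 fit per sequencing run with all groups of that run as terms. Genes passed filterByExpr (minimum count 10, minimum total 15). P-values were adjusted by Benjamini-Hochberg over all genes tested in a run, with a threshold of 0.05, and only the rows of the genes named here are printed. CPM values use the deposited, unrounded counts. The tests were tried on simulated data. Alternatives were DESeq2 1.42.0, its size factors in edgeR, no filter, a filter at a mean of 1 CPM, only the compared groups, the replicate block and leaving out each library. Groups come from the library codes in the labels. The numbers that the titles add to CASC15 rise from library to library and were not used.

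Replicate numbers pair libraries by the batch in the labels. After removing group means, same-batch libraries correlated at a mean r of 0.230 in run 2 (9 of 13 pairs above 0.1) and 0.197 in run 3 (27 of 40). Across batches the mean r was -0.121 and -0.0606. These values are no separate contrast, since removing group means itself pushes them to the opposite sign. In groups of 2 the libraries become mirror images, so pairs between such groups repeat the same value. No 2 replicates agreed within sampling noise.

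Members and lists were chosen with earlier results of these data known. Named are all 8 members in every group. Of 16 other genes in or near the locus, 18 SOX genes and 10 reported SOX4 targets, counts are given with the 2 called genes of largest change per comparison, and Agtr1a, Sox11 and Sox12 always. Named too are genes between Mrs2 and Mboat1 that were tested, and the 5 most alike and 2 most opposite genes over run 3. Sox5, Dicer1, Ago1 and the cell type markers were named after their values were seen. Promoter windows come from RefSeq (GRCm38.p6), without the bases after the start.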

Additional observations from a re-analysis of the deposited data

Results flagged for a closer look

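Mrs2 in the untreated antisense control of run 3 had 1 library apart from the others: the P19 library stood at 56.71 CPM against 49.91, 50.01 and 50.62 in the other batches. The gap to the nearest library was 0.896 of the whole range of the group. The 6 tested members were read in 5 groups of 4 libraries, 30 readings in all, and chance gives such a gap in about 1 of 20. Mrs2 also stood highest in batch P19 with PDGF-BB (72.56 CPM), in long knockdown untreated (53.81) and with angiotensin II (52.83), and in the control plasmid (56.75) and overexpression (52.48) groups of run 2, and lowest in that batch with angiotensin II in control cells, at 48.02 CPM. The batch's part in this was not tested.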

How the results depend on the processing

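Over 54 results on the members and 750 alternative values, 0 reversed, and 49 results kept their side of the threshold throughout. The 5 others were Sox4 with overexpression and in control plasmid against antisense control, Mboat1 in libraries labelled total knockdown, and E2f3 in both long knockdown settings. For Sox4 with overexpression the log2 change was -1.177 with DESeq2, -1.194 without a filter (adjusted p = 2.81e-10) and -1.148 with the replicate block, all past the threshold, and -1.461 to -0.902 without single libraries. For the control plasmid it was -0.604 without a filter (adjusted p = 0.0316). The replicate block ended no call on a member and added Sox4 with overexpression and Mboat1 in libraries labelled total knockdown only.

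Counts of genes called depended more on the settings. The comparison labelled total knockdown went from 317 to 719 (DESeq2), 190 (mean of 1 CPM), 1325 (no filter), 1079 (only the groups compared) and 2209 (replicate block), and to 4 to 188 without single libraries. Overexpression went from 253 to 807, 1363 (no filter), 66 (only the groups compared) and 2721 (block), and to 86 to 867. Control plasmid against antisense control went from 181 to 347, 1106, 101 and 459 in the same order, and to 67 to 277. With the block, long knockdown went from 3783 to 6126 untreated and from 4033 to 6238 with angiotensin II. Angiotensin II in control cells and its interaction with knockdown went from 0 to 1 with DESeq2 and with only the groups compared. The cause was not tested.

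Hdgfl1 and Nrsn1 had too few reads to be tested, 2610307P16Rik stood at under 10 CPM outside overexpression, and groups of 2 limit the comparison labelled total knockdown.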
